A study of Mus musculus with 14 samples.

Results

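The 10 genes described here mark endothelial cells, which line blood vessels, and the blood-brain barrier that these cells form in the brain. They were Cldn5, Flt1, Pecam1, Tek, Cdh5, Ly6c1, Slco1a4, Abcb1a, Itm2a and Slc2a1. They were chosen by gene symbol, with earlier results of these data known, and all 10 were found among the 22485 gene symbols of the deposited gene table. The study set RNA of mouse hippocampal tissue that had been taken apart with an enzyme against RNA of tissue that had been homogenised directly. It did so for CA1, for CA3 and for the dentate gyrus, called DG here. The dissociated group held 3 libraries of CA1, 2 of CA3 and 2 of DG, and the control group held the same numbers. Dissociated tissue lay for 75 min at room temperature in artificial cerebrospinal fluid with pronase, a mixture of proteases, at 1 mg/ml, and was then vortexed, spun down and passed up and down a pipette in the same fluid with 1% FBS (fetal bovine serum). Control tissue went without these steps, and RNA of both groups was isolated with the same kit. Per the labels and the authors' sample table, all 14 libraries came from 1 wild-type mouse of the C57BL/6 strain, whose age is not given in the sources used here. A p-value below therefore rests on the spread between pieces of tissue of a single animal and says nothing of the spread between mice.

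Endothelial cells of brain vessels are held together by tight junctions, so that little passes between them, and what enters or leaves the brain is carried through them by transporters. Claudin 5, the product of Cldn5, is the main strand-forming protein of these tight junctions, and Cdh5 and Pecam1 encode adhesion molecules of endothelial cells in general. Slc2a1 encodes GLUT1, which brings glucose across the barrier and is also made by astrocytes, the star-shaped glia whose end-feet wrap the vessels. Abcb1a encodes a P-glycoprotein, an efflux pump for drugs and lipophilic compounds, and Slco1a4 encodes a carrier of organic anions. Flt1 and Tek encode receptors on the endothelial surface, for VEGF and for angiopoietins. Ly6c1, a small anchored surface protein, and Itm2a, a membrane protein, are strongly expressed by mouse brain endothelium.

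The depth of the libraries, as the sum of estimated counts, was 65887 to 4782767 for the 7 dissociated and 1285654 to 6646655 for the 7 control libraries. Of the dissociated libraries 3 held under 500000 counts, namely CA1 replicates 2 and 3 and DG replicate 3. The cutoff marks no clear gap in depth: CA1 dissociated replicate 3 held 300812 counts and DG dissociated replicate 4, the next, 598775. With no read counted, as many as 3 remain possible, and on the CPM scale (counts scaled to library size) 3 counts are 0.683 to 46.6 CPM in dissociated libraries and 0.443 to 2.19 CPM in control libraries. Such limits cover counting error only. All 10 genes had counts in every control library, and 1 to 6 of the 10 were at 0 in 4 of the dissociated libraries. DG dissociated replicate 3 had 10 counts over all 10 genes together. The tissue is bulk, so fewer cells of a type and less RNA per cell cannot be told apart in any value below. Markers of other cells moved with treatment: the summed level of 14 microglia markers was 699 to 2654 CPM in dissociated and 330 to 572 CPM in control libraries, and that of 13 oligodendrocyte markers was 1555 to 13418 CPM in dissociated and 664 to 4032 CPM in control libraries.

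Per transcript length, the barrier genes covered a wide range of levels. Slc2a1 was the highest of the 10, with 87.4 ± 46.3 TPM (abundance scaled by transcript length and library) in dissociated and 43.2 ± 11.1 TPM in control libraries (SD, n = 7 each, as for all TPM means here). Cldn5 averaged 42.6 ± 49.1 TPM in dissociated and 33.5 ± 17.5 TPM in control libraries, and Ly6c1 81.5 ± 101.4 TPM in dissociated and 30.5 ± 11.8 TPM in control libraries. The dissociated mean of Ly6c1 includes 292 TPM in CA1 replicate 3, from 11 counts. Of that mean 64.6% was assigned to Ly6c1-004, a transcript of 421 bases with 12.5 estimated counts over the dissociated libraries. The control means of the other 7 genes were 20.1 TPM for Itm2a, 14.7 TPM for Slco1a4, 12.8 TPM for Flt1, 6.42 TPM for Pecam1, 4.85 TPM for Cdh5, 4.43 TPM for Abcb1a and 3.31 TPM for Tek. Between neighbours in this order, Flt1 was above Pecam1 in 7 of 7 control libraries, while each of the other neighbouring pairs kept its order in 4 to 6 of the 7, so most neighbours did not differ beyond their spread. Among all 22485 genes, the control mean placed Slc2a1 at percentile 81.0 and Tek, the lowest, at percentile 46.0.

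**Figure D1:**
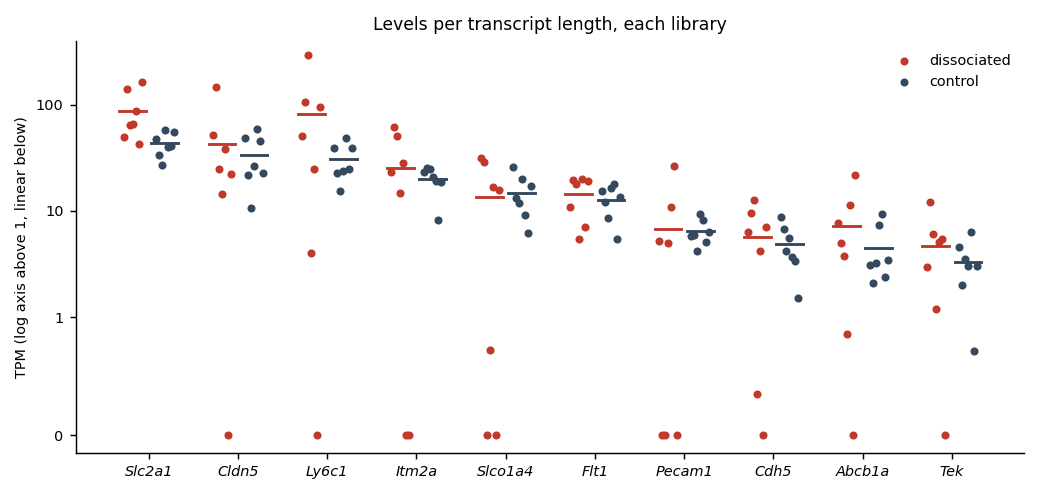
TPM of each of the 10 genes (horizontal axis, ordered by the control mean) in each dissociated library (red) and each control library (dark blue-grey), with group means as lines, on an axis that is logarithmic above 1 and linear below. The dissociated libraries include values of 0 for 8 of the 10 genes, all but Slc2a1 and Flt1, and no control library does.

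The comparison of dissociated with control tissue over all 3 regions asked which transcripts change when tissue is enzymatically dissociated. Slc2a1 was higher in dissociated tissue, and none of the other 9 genes passed the test. Of the 10 genes 1 was called, against 0.773% of the 13063 genes tested in either direction (101 genes) and 0.727% higher (95 genes, edgeR quasi-likelihood test, Benjamini-Hochberg adjusted p under 0.05). Log2 fold changes, dissociated over control, were positive for 9 of the 10 with a median of 0.45, beside 41.9% positive and a median of -0.11 over all genes tested, while on the log2(TPM + 1) scale, with limma, 4 of the 10 were positive with a median of -0.09, and the median of all genes was -0.64.

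**Figure D2:**
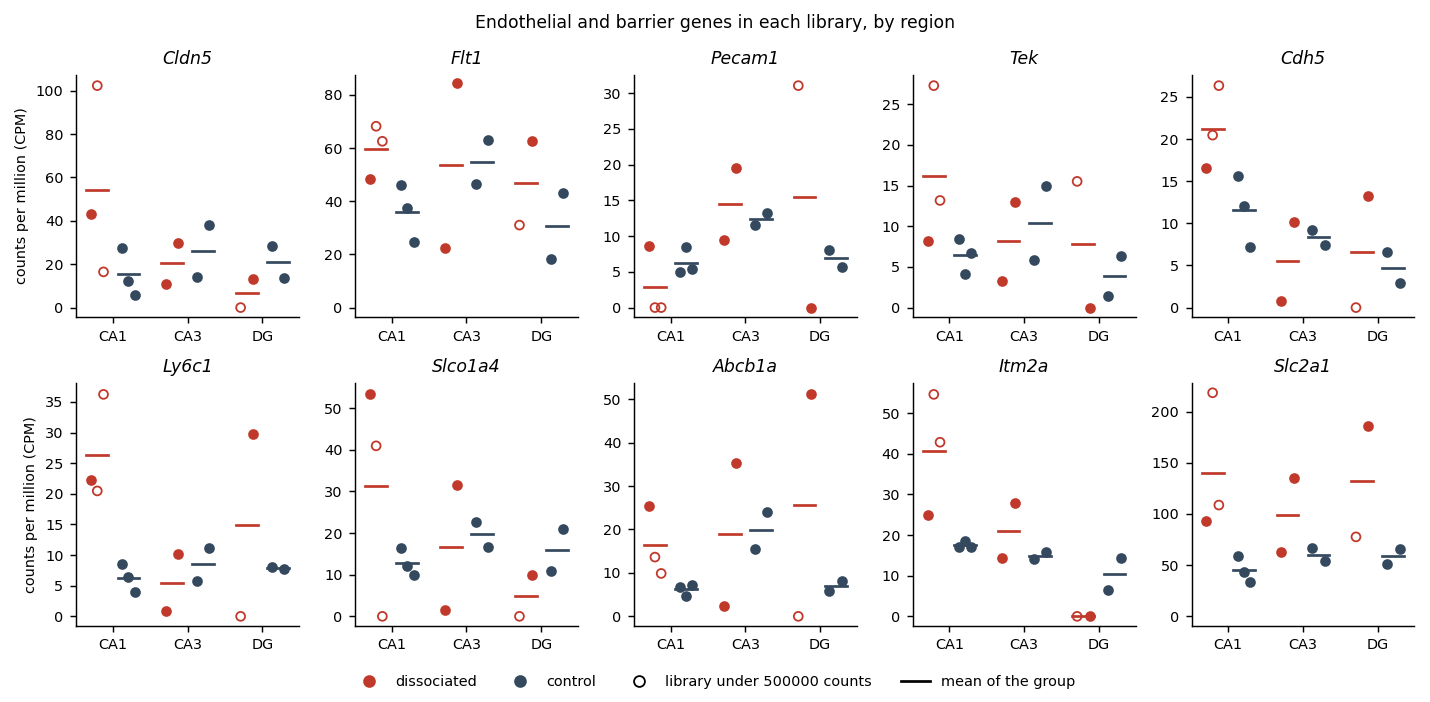
CPM (vertical axis, from 0) of each gene in each library, by region, with dissociated libraries in red left of control libraries in dark blue-grey, open symbols for libraries under 500000 counts and lines for group means. Each dissociated library of Slc2a1 lies above each control in CA1 and DG but not in CA3, and Itm2a lies above its controls in CA1 and at 0 in both dissociated DG libraries.

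Among the transporters, Slc2a1 (ENSMUSG00000028645, chr4:119108711-119137983, plus strand, 10 exons in its main transcript, GRCm38 and GENCODE M21 as for all gene positions here) had a lowest, median and highest level of 62.8, 109 and 218 CPM in the 7 dissociated libraries, against 33.1, 53.6 and 66.3 CPM in the 7 control libraries. The groups overlapped through CA3 dissociated replicate 1 alone, which lay below the 2 highest controls. The means were 126 ± 57.7 CPM in dissociated and 53.2 ± 12.1 CPM in control libraries (SD, n = 7 each), a log2 fold change of 1.23 ± 0.27 (SE, 95% interval 0.67 to 1.80, edgeR adjusted p = 0.0291). This call rested on single libraries: leaving out 1 library at a time kept the log2 fold change between 1.07 and 1.37, but kept the call in 7 of 14 fits. The edgeR adjusted p was 0.0515, 0.0996 and 0.105 without CA1 control replicates 1, 2 and 3, 0.0612 without CA3 control replicate 4, 0.0615 without CA1 dissociated replicate 2, 0.0519 without DG dissociated replicate 4 and 0.105 without replicate 4 of dissociated CA3. Without the 3 libraries under 500000 counts the log2 fold change was 1.10 (edgeR adjusted p = 0.107), and on the log2(TPM + 1) scale it was 0.88 (limma adjusted p = 0.128).

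Because Slc2a1 was the gene called, its promoter is shown. It lies at chr4:119108495-119108794 on the plus strand (RefSeq, GRCm38.p6), from 250 bases before to 50 after the start that RefSeq gives, which lies downstream of the GENCODE start above. The capitals mark ACGTG, a form of the core of the element bound by hypoxia-inducible factors. The form GCGTG was not searched, so what follows holds for ACGTG only.
Slc2a1 promoter: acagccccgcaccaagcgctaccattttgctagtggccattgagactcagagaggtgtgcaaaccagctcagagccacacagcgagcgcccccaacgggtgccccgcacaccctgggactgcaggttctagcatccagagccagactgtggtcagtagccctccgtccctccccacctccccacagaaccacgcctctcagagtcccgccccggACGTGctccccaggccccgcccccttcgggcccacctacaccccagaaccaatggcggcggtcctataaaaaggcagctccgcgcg
The motif was searched on both strands (ACGTG and CACGT) in the 9 promoters of 8 of the 10 genes that RefSeq gave, and was found in that of Slc2a1 alone, at position -36 from the RefSeq start. It is held by 19.6% of 32851 mouse promoters of the same length, beside 1 of 9 here. CCGGAA, a form of the core bound by ETS factors, was in 0 of the 9 and in 14.9% of all promoters (both strands, CCGGAA and TTCCGG). Other forms of that core were not searched, so the 0 holds for CCGGAA only. A match is a description of letters and says nothing of binding in these samples.

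Slc2a1 was read into 2 transcripts in the controls. Slc2a1-001, with the full coding sequence of 1479 bases, averaged 43.9 ± 27.6 TPM in dissociated and 22.4 ± 6.57 TPM in control libraries. Slc2a1-004, with a coding sequence of 522 bases, averaged 39.6 ± 37.96 TPM in dissociated and 20.8 ± 9.22 TPM in control libraries (SD, n = 7 each). Both means were higher in dissociated libraries, without a test of either form. The share of Slc2a1-001 was larger in CA1 libraries than in DG libraries in both groups, also without a test: it was 66.9 to 100% in dissociated and 59.4 to 69.4% in control CA1, and 29.3 to 50.2% in dissociated and 36.0 to 36.6% in control DG. Another form, Slc2a1-005, was estimated only in CA3 dissociated replicate 1, from 9.85 counts.

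Abcb1a (chr5:8660077-8748575, plus strand, 28 exons) ranged from 0 over a median of 13.6 to 51.1 CPM in dissociated libraries, against 4.73, 7.15 and 24.1 CPM in control libraries. Its groups overlapped, and the log2 fold change of 1.25 ± 0.56 was as large as that of Slc2a1 but not called (SE, edgeR adjusted p = 0.363). Slco1a4 (chr6:141805440-141856199, minus strand, 17 exons) had 0, 9.89 and 53.3 CPM in dissociated and 9.83, 16.5 and 22.8 CPM in control libraries as lowest, median and highest. The dissociated libraries lay on both sides of the controls, with 2 of them at 0 and the deepest at 53.3 CPM, and the log2 fold change was 0.36 ± 0.61 (SE, edgeR adjusted p = 0.862).

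Of the junction genes, Cldn5 (chr16:18776847-18778262, plus strand, 1 exon) had a lowest, median and highest level of 0, 16.5 and 102 CPM in dissociated libraries, against 5.81, 14.04 and 38.2 CPM in control libraries. Cdh5, or VE-cadherin (chr8:104101625-104144511, plus strand, 12 exons), had 0, 13.2 and 26.3 CPM in dissociated libraries, against 2.87, 7.48 and 15.6 CPM in control libraries. Pecam1, or CD31 (chr11:106654217-106750628, minus strand, 14 exons), had 0, 8.65 and 31.04 CPM in dissociated libraries, against 4.91, 8.04 and 13.3 CPM in control libraries. For all 3 genes the groups overlapped and the dissociated libraries spread wider. The zeros of Cldn5, in DG replicate 3, and of Pecam1, in CA1 replicates 2 and 3 and DG replicate 4, stand where a 0 allows at least 4.95 CPM, not below the lowest Pecam1 control of 4.91 CPM, while the 31.04 CPM of Pecam1 in DG dissociated replicate 3 came from 2 counts. The log2 fold changes were 0.45 ± 0.53 for Cldn5, 0.45 ± 0.57 for Cdh5 and -0.11 ± 0.66 for Pecam1 (SE, edgeR adjusted p = 0.771, 0.790 and 0.968), the last equal to the median of all genes.

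Of the receptors, Flt1, which encodes VEGF receptor 1 (chr5:147561604-147726011, minus strand, 30 exons), had a lowest, median and highest level of 22.6, 62.6 and 84.4 CPM in dissociated libraries, against 18.3, 43.1 and 63.2 CPM in control libraries. It was the only gene of the 10 besides Slc2a1 with counts in all 14 libraries. Tek, which encodes the angiopoietin receptor TIE2 (chr4:94739289-94874976, plus strand, 23 exons), had 0, 12.98 and 27.3 CPM in dissociated libraries, against 1.46, 6.38 and 15.0 CPM in control libraries. Both genes overlapped between groups, with log2 fold changes of 0.46 ± 0.32 for Flt1 and 0.27 ± 0.70 for Tek (SE, edgeR adjusted p = 0.585 and 0.914). The Tek estimate turned to -0.36 without the 3 libraries under 500000 counts.

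Flt1 is read into 2 transcripts in the deposited tables: Flt1-001, which encodes the full receptor, and Flt1-002, a shorter form whose reading frame ends early. A secreted short form of FLT1 is known to bind VEGF without signalling. Their coding sequences share the first 1972 bases and then part, with 2030 bases more in Flt1-001 and 95 in Flt1-002. The stretches that follow the point of divergence are shown because they tell the forms apart. Both are read 5′ to 3′ on the minus strand of chromosome 5 from GENCODE M21 transcripts (GRCm38), with the last 24 shared bases in lower case and the bases particular to each form in capitals (the first 96 for Flt1-001, all 95 for Flt1-002):
Flt1-001: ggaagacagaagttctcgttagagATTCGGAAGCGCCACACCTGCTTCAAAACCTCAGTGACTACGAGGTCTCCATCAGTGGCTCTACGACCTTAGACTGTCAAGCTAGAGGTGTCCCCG
Flt1-002: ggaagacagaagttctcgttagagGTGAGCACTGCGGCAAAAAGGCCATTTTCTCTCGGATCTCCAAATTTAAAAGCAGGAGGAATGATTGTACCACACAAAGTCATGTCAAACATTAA
Flt1-001 averaged 9.20 ± 6.45 TPM in dissociated and 8.71 ± 3.35 TPM in control libraries, and Flt1-002 5.06 ± 3.83 TPM in dissociated and 4.05 ± 1.63 TPM in control libraries (SD, n = 7 each). Flt1-002 had a lowest, median and highest share of Flt1 TPM of 4.67, 42.9 and 100% in dissociated libraries, against 21.8, 32.3 and 41.5% in control libraries. In every control library the full form held the larger share. The 100% came from 2 counts in DG dissociated replicate 3, and the 3 dissociated CA1 libraries had 43.9, 56.8 and 42.9%, against 38.7, 27.7 and 32.4% in control CA1. In CA3 the order was the other way, with 9.2 and 17.3% in dissociated and 32.3 and 21.8% in control libraries. No test was run on these shares, which are estimates of kallisto and not counts of reads over the stretches shown.

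**Figure D3:**
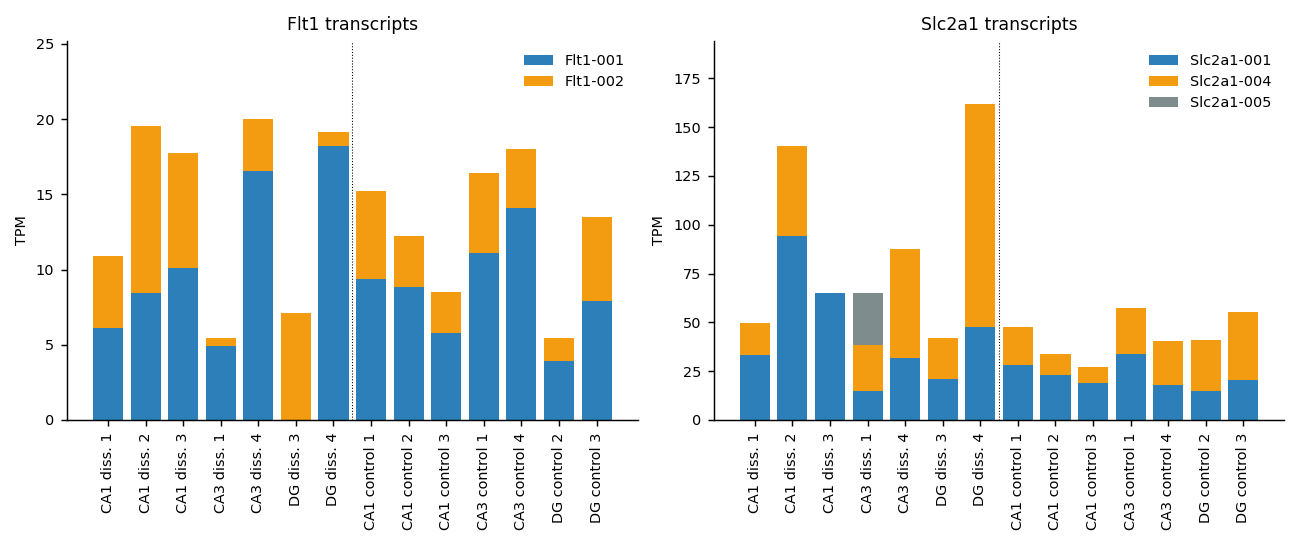
TPM (stacked bars from 0) of the transcripts of Flt1 and Slc2a1 in each library, dissociated libraries left of the dotted line and control libraries right of it. The share of Flt1-002 is 21.8 to 41.5% in the control bars and 4.67 to 100% in the dissociated bars, and Slc2a1-001 takes a larger share in CA1 than in DG in both groups.

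Of the surface proteins, Ly6c1 (chr15:75044018-75048830, minus strand, 4 exons) had a lowest, median and highest level of 0, 20.5 and 36.2 CPM in dissociated libraries, against 4.02, 7.66 and 11.2 CPM in control libraries. Its dissociated libraries were above every control in 4 cases and below every control in 2, of which DG replicate 3 is at a 0 that allows up to 46.6 CPM, and the log2 fold change of 1.11 ± 0.60 was not called (SE, edgeR adjusted p = 0.461). Itm2a (chrX:107397099-107403376, minus strand, 6 exons) had 0, 24.8 and 54.6 CPM in dissociated libraries, against 6.58, 15.8 and 18.5 CPM in control libraries. The groups overlapped, with 5 dissociated libraries among or above the controls and 2 at 0, and the log2 fold change was 0.36 ± 0.50 (SE, edgeR adjusted p = 0.818).

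Precision limited what could be seen: the 95% intervals of the 10 log2 fold changes were 1.13 to 2.91 wide, and the upper bound lay above 1 for all 10.

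**Figure D4:**
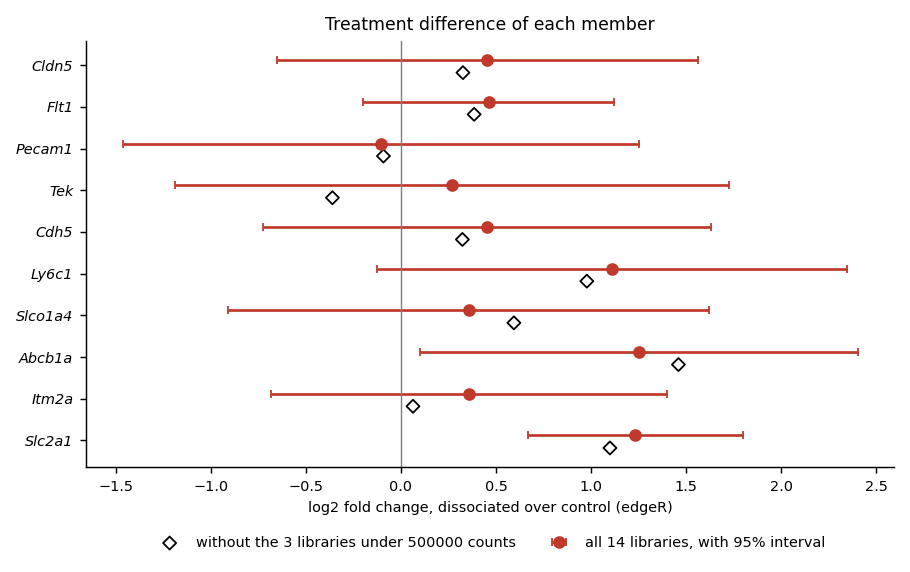
Log2 fold change of each gene, dissociated over control (horizontal axis), from edgeR over all 14 libraries with its 95% interval (red), and without the 3 libraries under 500000 counts (open diamonds). The interval of Slc2a1 is the narrowest and runs from 0.67 to 1.80, that of Abcb1a also lies above 0, and the other 8 cross it.

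Within CA1 the summed level of the 10 genes was higher in each dissociated library than in each control library, while none of the 10 was called by edgeR. Summed over the 10 genes, the 3 dissociated CA1 libraries had 344, 566 and 316 CPM, against 210, 159.7 and 121 CPM in the 3 control CA1 libraries. In CPM each dissociated library lay above each control for 6 of the 10 genes (Flt1, Cdh5, Ly6c1, Abcb1a, Itm2a and Slc2a1), beside 7.14% of all genes tested, and below for 0 of the 10, beside 16.0% of all genes. In TPM this separation did not hold for Flt1, Cdh5 and Itm2a. Their dissociated replicate 1 had 10.9, 6.35 and 23.28 TPM, and control replicate 1 had 15.2, 8.81 and 23.43 TPM. The summed microglia markers were 1719, 2654 and 1571 CPM in dissociated CA1, above the 572 CPM that no control library exceeded. Oligodendrocyte markers were 1555, 3794 and 6544 CPM in dissociated CA1, against 762, 664 and 858 CPM in control CA1, so that each dissociated library was above each control for these as well. Astrocyte markers were 4960, 2989 and 2457 CPM in dissociated CA1, against 3647, 2900 and 2762 CPM in control CA1, with dissociated replicate 1 above all 3 controls. Their part in the values of the 10 genes was not tested.

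On the CPM scale the separation was wide for some genes and narrow for others. Slc2a1 had 93.2, 218 and 109 CPM in dissociated CA1, against 58.9, 43.4 and 33.1 CPM in control CA1. In TPM its lowest dissociated value there was 49.5, close above the highest control at 47.6. Itm2a had 24.8, 54.6 and 42.8 CPM in dissociated CA1, against 17.0, 18.5 and 17.0 CPM in control CA1. Ly6c1 had 22.3, 20.5 and 36.2 CPM in dissociated CA1, against 8.48, 6.499 and 4.02 CPM in control CA1. By contrast, the lowest dissociated value of Cdh5, 16.6 CPM, and of Flt1, 48.3 CPM, lay close above the highest controls, 15.6 and 46.0 CPM. In replicates 2 and 3 several of these values came from 2 or 3 counts, as for Abcb1a with 13.6 and 9.88 CPM. In CA1 dissociated replicate 1, the deepest dissociated library, 9 of the 10 genes lay above all 3 controls, beside 31.1% of all genes, and 0 lay below, beside 33.4%. Its exception was Tek, the angiopoietin receptor, with 8.20 CPM in dissociated replicate 1, against 4.14 to 8.48 CPM in control CA1. In TPM Flt1, Pecam1, Cdh5 and Itm2a were not above all 3 controls in this library either.

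No gene of the 10 was called within CA1 by edgeR, where 0.191% of all genes were (25 of 13063). Of the 10 genes 3 had an unadjusted edgeR p under 0.05, beside 1464 of all 13063 genes. The 3 were Slc2a1 with a log2 fold change of 1.55 ± 0.42, Ly6c1 with 2.04 ± 0.79 and Cldn5 with 1.69 ± 0.70 (SE, edgeR adjusted p = 0.18, 0.342 and 0.371). DESeq2 called Slc2a1 within CA1 (log2 fold change 1.70, adjusted p = 0.0171).

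Within CA3 the 2 dissociated libraries parted. Summed over the 10 genes, dissociated replicates 1 and 4 had 129 and 397 CPM, against 212 and 258 CPM in control replicates 1 and 4. In dissociated replicate 1, 8 of the 10 genes lay below both controls, beside 34.3% of all genes tested, and 0 above, beside 29.5%. In dissociated replicate 4, 7 of the 10 lay above both controls, beside 36.1% of all genes, and 0 below, beside 40.2%. The summed astrocyte markers also parted, with 3681 and 9263 CPM in dissociated replicates 1 and 4, against 3746 and 3373 CPM in control replicates 1 and 4. Microglia markers were above both controls in each, with 1109 and 1656 CPM in dissociated replicates 1 and 4, against 444 and 544 CPM in the controls. Their part in the values of the 10 genes was not tested.

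As a ratio, the gap between the dissociated libraries was widest for 4 genes. Slco1a4 had 1.64 and 31.5 CPM in dissociated CA3, against 22.8 and 16.6 CPM in control CA3. Abcb1a had 2.46 and 35.2 CPM in dissociated CA3, against 15.5 and 24.1 CPM in control CA3. Cdh5 and Ly6c1 had 0.821 CPM each, or 2 counts, in dissociated replicate 1, and 10.2 CPM each in dissociated replicate 4, against 9.20 and 7.48 CPM for Cdh5 and 5.81 and 11.2 CPM for Ly6c1 in control CA3. Dissociated replicate 1 was the deeper of the pair, with 2498914 counts against 1193153 in replicate 4. For no gene of the 10 did both dissociated libraries lie above both controls (15.7% of all genes) or below them (18.1%). No gene was called within CA3, neither among the 10 nor among all 13063, by edgeR (523 of all genes had an unadjusted p under 0.05, and 0 of the 10) or by DESeq2. For the 10, log2 fold changes ran from -0.79 for Ly6c1 to 0.71 for Slc2a1.

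Within DG, Slc2a1 was the gene with both dissociated libraries above both controls in CPM, and 3 genes lay below. In dissociated replicate 3 its level stood on 5 counts. In TPM that library had 42.2, between the controls at 41.1 and 55.3. Slc2a1 had 77.6 and 186 CPM in dissociated DG, against 51.2 and 66.2 CPM in control DG, a log2 fold change of 1.33 ± 0.52 (SE, edgeR adjusted p = 0.264) that was 0.39 without dissociated replicate 4. The count of 1 of 10 above compares with 8.26% of all genes tested, and 3 of 10 below (Cldn5, Slco1a4 and Itm2a) with 32.2%. Replicate 3 was at 0 for these 3, where a 0 allows 46.6 CPM. In dissociated replicate 4 alone, 5 of the 10 lay above both controls (31.7% of all genes) and 5 below (48.0%). The higher ones were Flt1, Cdh5, Ly6c1, Abcb1a and Slc2a1, with Abcb1a at 51.1 CPM in dissociated replicate 4, against 5.85 and 8.14 CPM in control DG. The lower ones were Cldn5, Slco1a4, Itm2a, Pecam1 and Tek, of which Tek was at a 0 that allows 4.95 CPM, above one of its controls at 1.46 CPM.

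Itm2a had 0 counts in both dissociated DG libraries, against 99 counts, or 6.58 and 14.4 CPM, in the control DG libraries. Set against 3 counts over both dissociated libraries together, its pooled level was at least 2.899-fold lower in dissociated DG, a bound that covers counting error only. The bound was 1.47-fold without DG control replicate 3, and without DG dissociated replicate 4 there was none. Replicate 4 carries this result, since the 3 counts that a 0 allows are 4.95 CPM there and 46.6 CPM in replicate 3, above both controls. Pecam1 had 2 counts in dissociated DG and 47 in control DG, a ratio of pooled CPM of 0.484 (95% exact Poisson interval 0.0587 to 1.75), and Tek 1 count in dissociated DG and 42 in control DG (0.271, interval 0.00686 to 1.51). Both intervals include 1. No gene of the 10 was called within DG by edgeR or DESeq2, and Abcb1a, Itm2a and Slc2a1 had an unadjusted edgeR p under 0.05. Of all 13063 genes edgeR called 0.161% (21), and 1839 had an unadjusted p under 0.05.

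Whether the response to dissociation differed between regions was tested as an interaction of treatment and region. No gene of the 10 and no other gene was called by edgeR (1112 of 13063 genes had an unadjusted p under 0.05, and 1 of the 10), while DESeq2 called 28 genes and none of the 10. The gene of the 10 at an unadjusted p under 0.05 was Itm2a (edgeR adjusted p = 0.457). In CPM its dissociated libraries were all above every control in CA1 and below in DG, but in TPM they were not in CA1. For Slc2a1 the edgeR adjusted p of the interaction was 0.862, with log2 fold changes of 1.55 ± 0.42 in CA1, 0.71 ± 0.49 in CA3 and 1.33 ± 0.52 in DG (SE). Those in CA3 and DG rested on 1 library each, with 0.10 in CA3 without CA3 dissociated replicate 4 and 0.39 in DG without DG dissociated replicate 4.

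Regions were compared with treatment held in the model. None of the 10 genes was called by edgeR or DESeq2 for CA1 against DG, where edgeR called 4.06% of all genes, for CA3 against DG (1.77%) or for CA1 against CA3 (0.115%). Of the 10 genes Itm2a alone had an unadjusted edgeR p under 0.05, for CA1 against DG, where 2050 of all 13063 genes did. Itm2a had 29.1 ± 15.9 CPM in CA1 (SD, n = 6) and 5.23 ± 6.83 CPM in DG (SD, n = 4) and a log2 fold change of 1.55 ± 0.63 (SE, edgeR adjusted p = 0.213). In control libraries alone Itm2a had 17.0 to 18.5 CPM in CA1, 14.04 to 15.8 CPM in CA3 and 6.58 to 14.4 CPM in DG. Abcb1a was spread the other way in controls, with 15.5 and 24.1 CPM in CA3, above the 4.73 to 8.14 CPM of the 5 other controls. Its log2 fold change for CA1 against CA3 over both treatments was -0.99 ± 0.64 (SE), not called by edgeR.

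Reads of close relatives could be counted for 3 of the genes. Of the stretches of 31 bases in the transcripts of Ly6c1, 37.3% also occurred in another gene, mainly Ly6c2, with 23.2% for Abcb1a, mainly in Abcb1b, and 8.37% for Slco1a4, mainly in Slco1a5. For the other 7 genes the share was at most 0.357%. Ly6c2, a marker of blood monocytes in mouse, had 1 count in 1 control library and 0 in the other 13. Abcb1b, which encodes another P-glycoprotein, averaged 4.68 ± 5.01 CPM in dissociated and 8.14 ± 3.46 CPM in control libraries (SD, n = 7 each, log2 fold change -0.54 ± 0.68 SE, edgeR adjusted p = 0.789). Values of Ly6c1 and Abcb1a therefore carry some uncertainty as to which copy the reads came from.

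Other genes of the barrier and its pathways were taken from lists drawn up for endothelium. None passed the test for treatment among 10 junction genes, 13 barrier transporters, 12 genes of the VEGF and angiopoietin pathway, 17 pan-endothelial genes and 15 genes of Wnt signalling and barrier induction (edgeR, with 1, 1, 2, 3 and 2 genes at an unadjusted p under 0.05). Of all 13063 genes, 1622 had an unadjusted edgeR p under 0.05. DESeq2 called 1 junction gene, 2 pan-endothelial genes and none in the other 3 lists, beside 478 of all 13063 genes. The median log2 fold changes were 0.05, 0.20, 0.31, 0.52 and 0.15, with 6 of 10, 11 of 13, 12 of 12, 13 of 17 and 11 of 15 positive, beside the -0.11 and 41.9% of all genes. On log2(TPM + 1), with limma, a scale that moved the values of most genes down, 2 of 10, 4 of 13, 2 of 12, 6 of 17 and 5 of 15 were positive, with medians of -0.49, -0.35, -0.34, -0.25 and -0.41 beside -0.64 for all genes. On these 2 scales each of the 5 medians lay above that of all genes. On log2(TPM + 0.1), with limma, this did not hold for all lists. The junction list, at -1.15, and the Wnt and barrier induction list, at -0.890, lay below the -0.879 of all genes. The other 3 medians, at -0.46, -0.63 and -0.74, lay above it.

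Among the most abundant genes of these lists, Klf4, a transcription factor that responds to flow in endothelium, averaged 97.6 ± 53.9 CPM in dissociated and 38.4 ± 8.46 CPM in control libraries (log2 fold change 1.28 ± 0.31 SE, edgeR adjusted p = 0.0594). The means of 2 others lay closer between groups: Tjp1, a tight junction scaffold, had 82.4 ± 30.9 CPM in dissociated and 73.5 ± 12.3 CPM in control libraries, and Ctnnb1, or beta-catenin, 392.04 ± 63.9 CPM in dissociated and 370.5 ± 52.6 CPM in control libraries (SD, n = 7 each throughout). Pan-endothelial calls appeared when 1 library was left out, with 1 without CA1 dissociated replicate 1 and 2 without either CA3 dissociated replicate 1 or DG dissociated replicate 4.

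**Figure D5:**
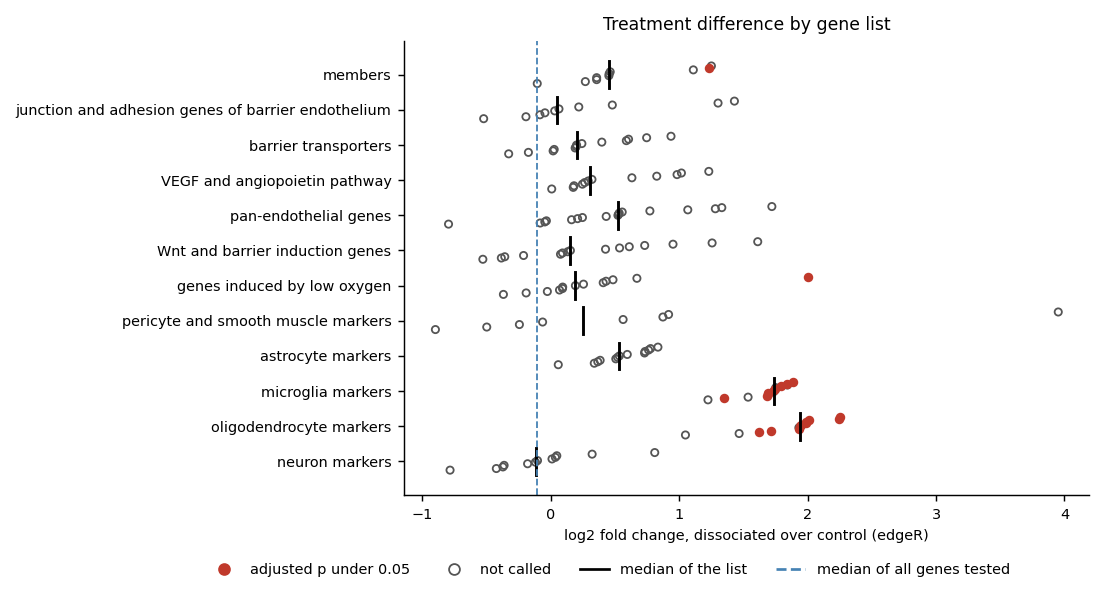
Log2 fold change of each tested gene, dissociated over control (horizontal axis), by gene list, with called genes filled, the list's median as a bar and the median of all genes tested as a dashed line at -0.11. Slc2a1 and Ndrg1 are the called genes among the 10 and the genes induced by low oxygen, and calls are frequent in the microglia (9 of 14) and oligodendrocyte (10 of 13) lists.

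Slc2a1 is also known as a gene induced by low oxygen, so 13 other genes of that kind and 5 other glucose transporters were set beside it. Of the 13, 1 was called: Ndrg1, which is also expressed by oligodendrocytes, with 126 ± 69.3 CPM in dissociated and 31.3 ± 16.9 CPM in control libraries (SD, n = 7 each, log2 fold change 2.01 ± 0.40 SE, edgeR adjusted p = 0.016). That count was 0 without CA1 control replicate 3 and without the 3 libraries under 500000 counts. The glycolytic enzyme genes Pgk1 and Ldha had log2 fold changes of -0.19 ± 0.23 and 0.07 ± 0.20, and the list's median was 0.19. None of the 5 other glucose transporters was called by edgeR or DESeq2 (1 at an unadjusted p under 0.05), and Slc2a3, the neuronal GLUT3, averaged 103 ± 51.0 CPM in dissociated and 110.5 ± 24.9 CPM in control libraries (log2 fold change -0.04 ± 0.26 SE, edgeR adjusted p = 0.971). The gene at an unadjusted p under 0.05 was Slc2a5, a fructose transporter that microglia express, named after its values were seen. It averaged 24.3 ± 35.7 CPM in dissociated and 3.76 ± 2.38 CPM in control libraries (SD, n = 7 each), a log2 fold change of 2.07 ± 0.82 (SE, edgeR adjusted p = 0.301).

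Markers of the cells around the vessels were measured alongside. None of 13 astrocyte markers was called by edgeR (6 at an unadjusted p under 0.05, and 1 called by DESeq2 and 1 without DG dissociated replicate 4), while all 13 had positive log2 fold changes with a median of 0.53 (9 of 13 on log2(TPM + 1), with limma, with a median of 0.12 beside -0.64 for all genes). Their summed level was 2457, 4960 and 9263 CPM as lowest, median and highest in dissociated libraries, against 2762, 3373 and 4564 CPM in control libraries. Of 8 pericyte and smooth muscle markers none was called over all regions by edgeR (3 at an unadjusted p under 0.05) or DESeq2, with a median of 0.25. Acta2, the actin of smooth muscle, had 2483 and 18.1 CPM in dissociated DG replicates 3 and 4, against 0.731 and 1.44 CPM in control DG, and was called within DG (edgeR adjusted p = 0.0255). The 2483 CPM stood on 160 counts. Of the 8 markers 2 were positive within DG, with a median log2 fold change of -0.71. Of the 5 red blood cell markers none was called by edgeR (1 at an unadjusted p under 0.05), against 1 by DESeq2, and all 5 were positive (2 on log2(TPM + 1), with limma, with a median of -0.50 beside -0.64 for all genes), with summed levels of 20.5 to 341 CPM in dissociated and 36.0 to 169.95 CPM in control libraries.

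Microglia and oligodendrocyte markers were the lists with many calls, 9 of 14 and 10 of 13 (edgeR), with median log2 fold changes of 1.74 and 1.94. Without the 3 libraries under 500000 counts these were 5 and 1, and the oligodendrocyte count was 6 without CA1 control replicate 2 and 6 without CA3 dissociated replicate 4. Of 12 neuron markers none was called by edgeR (1 at an unadjusted p under 0.05) or DESeq2, with a median of -0.11 and summed levels of 5246 to 16089 CPM in dissociated and 9513 to 13060 CPM in control libraries. Markers of perivascular fibroblasts (2 of 8 tested), of choroid plexus and ependyma (3 of 9) and of peripheral leukocytes (1 of 10) were mostly too low to test, and none was called by edgeR (0, 1 and 0 at an unadjusted p under 0.05) or DESeq2. Of 5 tested close paralogs of the 10 genes none was called by edgeR (0 at an unadjusted p under 0.05) or DESeq2. The part of astrocyte, microglia, oligodendrocyte or blood cells in the Slc2a1 difference was not tested.

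Between regions, 3 genes of the 5 endothelial and barrier lists were called by edgeR. For CA1 against DG they were 1 of 17 pan-endothelial, 1 of 12 VEGF and angiopoietin and 1 of 15 Wnt and barrier induction genes. Among 10 junction genes and 13 barrier transporters 0 were called there, beside 4.06% of all genes tested. For CA3 against DG 1 of the 17 pan-endothelial genes was called, beside 1.77% of all genes. Cd34, a sialomucin of endothelial and other cells, was higher in CA1 than in DG, with 88.9 ± 26.9 CPM in CA1 (SD, n = 6) and 8.07 ± 10.4 CPM in DG (SD, n = 4) and a log2 fold change of 3.25 ± 0.51 (SE, edgeR adjusted p = 0.000536), and with 0 counts in both dissociated DG libraries. It was also higher in CA3 than in DG, with 50.5 ± 27.1 CPM in CA3 (SD, n = 4) and a log2 fold change of 2.41 ± 0.52 (SE, edgeR adjusted p = 0.016). Nrp2, a co-receptor for VEGF that neurons also express, was lower in CA1 than in DG (32.5 ± 27.6 CPM in CA1 and 82.5 ± 43.4 CPM in DG, log2 fold change -1.54 ± 0.44 SE, edgeR adjusted p = 0.047), and so was Axin2, a target of Wnt signalling (12.1 ± 8.37 CPM in CA1 and 63.6 ± 32.8 CPM in DG, -2.23 ± 0.53, edgeR adjusted p = 0.0174).

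The 10 genes did not rise and fall as one among the control libraries. As a description over 7 libraries that share 1 animal, the correlation of each gene's log2 CPM with the mean of the 10 standardised genes ran from 0.204 for Cdh5 and 0.347 for Itm2a to 0.929 for Flt1, a mean to which each gene contributes itself. The 8 other genes most like that mean were Glmp (r = 0.970), Tada3 (0.970), Anapc5 (0.949), Calu (0.939), Samhd1 (0.936), Gins4 (0.930), Tgfb1 (0.921) and Arrdc2 (0.919), out of 11337 genes with a median r of 0.00522. None of the 8 was in a list used here, and the 53 endothelial and barrier genes of the lists had a median r of 0.133, with 12 of them above 0.5.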

How the data were processed

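RNA of dissociated and directly homogenised hippocampal tissue was measured in 14 libraries. Per the submitters' processing notes, FastQC, cutadapt, kallisto and DESeq2 were used, and the sources used here give no versions, genome build, annotation or strand setting. The authors deposited a gene table of counts and, per library, kallisto tables of estimated counts and TPM for 58716 transcripts. The gene table equals the sums of the estimated counts by gene symbol rounded to whole numbers (largest difference 0.5). The authors also deposited transcript lengths and effective lengths, of which only the transcript lengths were used here.

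Genes were kept by filterByExpr (minimum count 10, minimum total 15), which left 13063 of 22485, and all 10 members passed. The counts were scaled by TMM and tested with edgeR 4.0.16 in R 4.3.3 (quasi-likelihood test, Benjamini-Hochberg adjusted p under 0.05). Treatment over all regions and the region contrasts came from a model of region and treatment with 10 residual degrees of freedom. Differences within a region and the interaction were taken from a model of the 6 group means with 8 residual degrees of freedom. Standard errors were derived from the F statistic, and CPM uses the total times the TMM factor as library size. Alternatives used RLE and upper-quartile factors, other filters, DESeq2 1.42.0, limma 3.58.1 on log2(TPM + 1) and log2(TPM + 0.1), a replicate block and fewer libraries. The scripts were tested on simulated data. The 14 libraries carry 1 mouse, 1 job and 1 date in the authors' sample table, so no batch could be separated. The 10 genes and all lists were chosen with earlier results of these data known. Named from each list were the called genes and otherwise the most abundant 3 at most. The genes most like the 10 were the 8 with a mean of at least 5 CPM in controls and the highest Pearson r with the mean standardised log2 CPM (prior count 2) of the 10. Total counts ranged from 65887 to 6646655 per library, which limits the precision of every low gene. A result on 1 further gene is not reported here.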

Additional observations from a re-analysis of the deposited data

Results flagged for a closer look

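In CPM Itm2a, a gene of brain endothelium for a membrane protein, lay above its controls in each dissociated CA1 library. It was at 0 in each dissociated DG library, and was called in neither region (edgeR adjusted p = 0.482 within CA1 and 0.176 within DG). It had 24.8, 54.6 and 42.8 CPM in dissociated CA1, against 17.0, 18.5 and 17.0 CPM in control CA1, and 0 counts in both dissociated DG libraries, against 6.58 and 14.4 CPM in control DG. In TPM the separation in CA1 did not hold. CA1 dissociated replicate 1 had 23.28 TPM, below the control CA1 libraries at 23.43, 25.52 and 24.55 TPM. In DG dissociated replicate 3 a 0 allows 46.6 CPM, above both controls. The test of the difference itself, the interaction of treatment and region, was not called (edgeR adjusted p = 0.457).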

How the results depend on the processing

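For treatment, 101 genes were called. The count was 160 with RLE factors (154 higher, 6 lower), 345 without a filter (275 and 70), 478 with DESeq2 (411 and 67), 55 with limma on log2(TPM + 1) (7 and 48), 27 on log2(TPM + 0.1) (6 and 21) and 14 without the 3 libraries under 500000 counts (14 and 0). Over all genes the median was -0.64 on log2(TPM + 1) and -0.88 on log2(TPM + 0.1), against -0.11 in the edgeR fit. Slc2a1 was no longer called under these 2 scales and without the 3 libraries, so that 0 of the 10 were, and it stayed called with RLE and upper-quartile factors, both other filters and DESeq2. On log2(TPM + 1) the values turned to -0.44 for Cldn5, -0.17 for Cdh5, -0.0053 for Ly6c1, -1.15 for Slco1a4 and -0.74 for Itm2a. Relative to the median of all genes on that scale these were 0.19, 0.47, 0.63, -0.52 and -0.11. On log2(TPM + 0.1) they turned to -0.90 for Cldn5, -0.16 for Tek, -0.70 for Cdh5, -0.49 for Ly6c1, -2.19 for Slco1a4, -0.28 for Abcb1a and -1.65 for Itm2a. Without the 3 libraries Tek was at -0.36. The cause was not tested.

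For libraries with the same replicate number, deviations from the group means correlated with r from -0.164 to 0.0673 (6 values). The 2 values of CA3 are equal by construction, since deviations in a group of 2 mirror each other. With groups of 2 or 3 libraries, some of them shallow, these values cannot show whether the numbers pair libraries. The labels do not say what the numbers mean. A replicate block within regions, with 5 residual degrees of freedom, gave 380 calls, turned Pecam1 to 0.12 and Slco1a4 to -0.085 and kept Slc2a1 called at 1.06 (edgeR adjusted p = 0.0445).

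Without a filter, with DESeq2 and without the 3 libraries, the counts of all genes were 271, 206 and 0 within CA1, 261, 104 and 432 within DG, 128, 28 and 5 for the interaction, 900, 998 and 801 for CA1 against DG, 616, 499 and 366 for CA3 against DG and 127, 63 and 71 for CA1 against CA3, and 29 within CA3 without a filter. Within CA1, Slc2a1 was called without a filter (edgeR adjusted p = 0.0188) and with DESeq2 (adjusted p = 0.0171), so that 1 of the 10 was. Pecam1 turned to 0.48 within CA1 without the 3 libraries and to 0.48 within DG with DESeq2. For CA1 against DG without the 3 libraries Pecam1 was at 0.56 and Ly6c1 at -0.27. For CA1 against CA3, Cldn5 was at -0.0020 without them, Tek at 0.0050 with RLE factors and 0.029 without a filter, and Slc2a1 at 0.011, 0.026 and 0.017 with RLE factors, without a filter and with DESeq2.

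Leaving out 1 library at a time gave 38 to 254 calls for treatment: 38 without CA1 control replicate 2 or 3, 60 and 61 without CA3 control replicate 4 or 1, 65 without CA1 dissociated replicate 2, 39 without CA3 dissociated replicate 4 and, at the other end, 254 without DG dissociated replicate 4. Of the 10 genes 0 to 1 were then called. The ranges were 0 to 111 within CA1 (0 without CA1 control replicate 2 or 3 or CA1 dissociated replicate 2, 111 without CA1 dissociated replicate 1), 1 to 70 within DG (1 without DG control replicate 2, 70 without CA1 dissociated replicate 3), 0 to 5 for the interaction (5 without DG dissociated replicate 4), 212 to 771 for CA1 against DG and 57 to 594 for CA3 against DG (lowest without DG control replicate 3, highest without DG control replicate 2) and 7 to 73 for CA1 against CA3 (7 without CA1 control replicate 2, 73 without CA1 dissociated replicate 3). Where 1 library was left in a group, it was assumed to vary like the other groups.

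Members changed sign in such fits with these ranges of log2 fold change. For treatment they were -0.49 to 0.22 for Pecam1 and -0.27 to 0.68 for Slco1a4, and within CA1 -6.82 to 0.13 for Pecam1. Within CA3 they were -1.21 to 0.48 for Cldn5, -1.25 to 0.61 for Flt1, -0.37 to 0.64 for Pecam1, -1.62 to 0.40 for Tek, -3.23 to 0.29 for Cdh5, -3.27 to 0.25 for Ly6c1, -3.51 to 0.68 for Slco1a4, -2.95 to 0.82 for Abcb1a and -0.023 to 0.89 for Itm2a. Within DG they were -0.027 to 1.57 for Flt1, -7.06 to 2.19 for Pecam1, -6.41 to 1.84 for Tek, -6.43 to 1.88 for Cdh5, -7.25 to 1.89 for Ly6c1 and -7.12 to 2.81 for Abcb1a; values under -6 are set by counts of 0 and are no estimate of size. For CA1 against DG they were -0.0077 to 0.46 for Flt1, -0.56 to 0.36 for Pecam1, -0.20 to 0.53 for Ly6c1 and -0.86 to 0.36 for Abcb1a. For CA3 against DG they were -0.28 to 0.96 for Cldn5, -0.23 to 0.63 for Cdh5, -0.012 to 1.22 for Abcb1a and -0.37 to 0.019 for Slc2a1. For CA1 against CA3 they were -0.095 to 0.79 for Cldn5, -0.34 to 0.52 for Tek, -0.41 to 0.71 for Slco1a4 and -0.22 to 0.19 for Slc2a1. Depth limits the dissociated libraries most, since 3 counts are up to 46.6 CPM there. The views of single dissociated libraries over 500000 counts, the bound of Itm2a in DG with 1 library left out and the counts of each gene list under other settings were chosen after seeing the data.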
